A study of Mus musculus with 8 samples.

Results

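Some stretches of chromatin are open in stem and germ cells of the resting hair follicle and were not called open in transient amplifying cells of the growing one. They were collected here as the sites at which a bulge peak and a hair germ peak overlapped and at which neither list of transient amplifying cells held a peak. Overlapping peaks (at least 1 bp) of 4 ATAC-seq peak lists were merged into sites, with the mitochondrial and Y chromosomes left out, and 7795 of 114956 sites (6.78%, 95% interval 6.64 to 6.93) met this rule. They are called telogen-only sites below. They were chosen by the presence and absence of peaks in the same 4 lists, so their peak values are given as a description.

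The samples are epithelial cells sorted from mouse back skin, with mixed sex per the labels, and 2 samples were pooled by the authors into each list. Bulge stem cells (sorted for GFP, CD34, Itga6 and Itgb1) and hair germ cells (the same but CD34-) came from telogen follicles of Lgr5-eGFP-ires-CreER mice at postnatal day 55. Basal transient amplifying cells (basal TACs, GFP negative, CD34 and SCA1 negative, positive for P-cadherin and high in integrin β1) came from anagen follicles of the same strain at postnatal day 30. Suprabasal TACs (low in GFP, negative for integrin α6 and CD34) came from anagen follicles of K14-H2BGFP mice at postnatal day 30. The telogen and anagen lists therefore differ in age and in the cell populations sampled too, and the suprabasal list differs from the others in strain. These cannot be told apart from the stage of the hair cycle. No bulge or hair germ cells of anagen follicles were sampled. Telogen-only therefore means absent from both TAC lists, and whether the sites close elsewhere in the anagen follicle was not tested.

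As background, the hair follicle cycles between rest (telogen) and growth (anagen). In telogen the bulge holds quiescent stem cells, and the hair germ below it holds primed cells that are the first to divide when a new cycle begins. In anagen, TACs at the base of the follicle divide quickly and give rise to the hair shaft and inner root sheath, while the outer root sheath extends down from the bulge. ATAC-seq marks open DNA by the insertion of sequencing adapters by a transposase, and open sites away from promoters include many enhancers.

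Defining markers were looked at first. Cd34, the surface marker of the bulge sort, had 9 sites with a bulge peak, 7 with a hair germ peak, and 6 each in basal and suprabasal TACs, and 1 of its 11 sites was telogen-only. Lgr5, the stem cell receptor whose locus carries the reporter, had 21, 17, 16 and 7 in the same order. The epithelial keratin genes Krt14 and Krt5 had peaks in all 4 lists. At the immune gene Ptprc 3 sites had a bulge peak and 5 a hair germ peak, and at the endothelial gene Pecam1 10 and 10. An open site at a gene does not show that the gene is expressed, so the sites set no cell type. The telogen lists rest on fewer fragments (24065469 for the bulge, 11053351 for the hair germ) than the anagen lists (30824845 basal, 47852893 suprabasal).

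**Figure D1:**
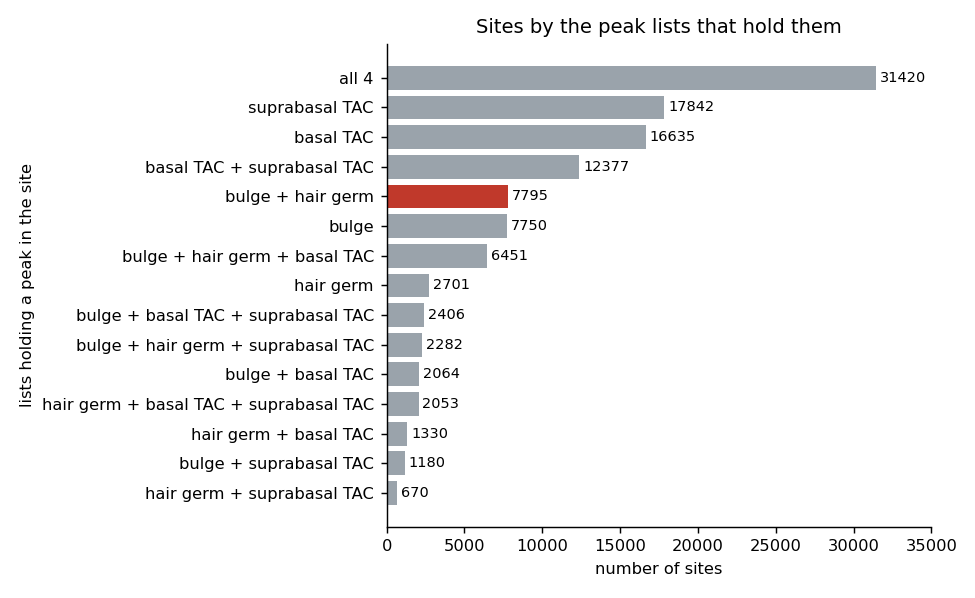
Number of sites (x axis) in each of the 15 combinations of lists that hold a peak (y axis). Sites of the bulge and hair germ lists only (7795, red) are close in number to sites of the bulge list only (7750), and 31420 sites were held by all 4 lists.

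Promoters are the minority of telogen-only sites for which sequence was at hand, and they are shown first to make the sites concrete. RefSeq windows from 250 bases before to 50 after a gene's start (GRCm38.p6, the same build as mm10) were overlapped by 184 telogen-only sites, or 2.36%. At 42 protein-coding genes both summits lay inside such a window. The 4 genes of highest fold enrichment among them are printed, as the 250 bases before the start, 5′ to 3′ in the direction of the gene. Capitals mark matches, on either strand, to 4 short motifs: AP-1 (TGANTCA, bound by FOS and JUN family factors), the half-site of nuclear factor I, NFI (TTGGCA), SOX (ACAATG) and TEAD (GGAATG).
Lrrc31, chr3:30699844-30700093, minus strand: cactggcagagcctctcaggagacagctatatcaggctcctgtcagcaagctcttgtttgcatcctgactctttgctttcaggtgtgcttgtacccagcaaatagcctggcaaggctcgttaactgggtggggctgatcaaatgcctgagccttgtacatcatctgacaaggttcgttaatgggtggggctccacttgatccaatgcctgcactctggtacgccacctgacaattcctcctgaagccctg
Gm829, chr4:45683339-45683588, plus strand: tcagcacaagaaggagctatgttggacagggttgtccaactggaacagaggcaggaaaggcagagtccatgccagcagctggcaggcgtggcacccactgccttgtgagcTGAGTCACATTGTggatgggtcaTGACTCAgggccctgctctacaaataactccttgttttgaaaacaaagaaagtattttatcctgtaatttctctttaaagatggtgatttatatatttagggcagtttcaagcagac
1700019D03Rik, chr1:52963232-52963481, minus strand: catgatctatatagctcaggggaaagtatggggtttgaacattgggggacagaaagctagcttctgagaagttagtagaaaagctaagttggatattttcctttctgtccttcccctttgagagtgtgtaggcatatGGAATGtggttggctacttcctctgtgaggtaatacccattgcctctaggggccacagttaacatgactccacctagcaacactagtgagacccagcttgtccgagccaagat
Fcgbp, chr7:28070986-28071235, plus strand: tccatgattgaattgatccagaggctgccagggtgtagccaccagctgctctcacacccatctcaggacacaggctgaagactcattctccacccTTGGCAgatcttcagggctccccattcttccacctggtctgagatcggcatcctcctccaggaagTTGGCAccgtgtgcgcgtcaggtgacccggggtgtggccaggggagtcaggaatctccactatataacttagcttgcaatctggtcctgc

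At Lrrc31, which encodes a protein with leucine-rich repeats, coverage at the summit was 312 fragments in bulge cells and 91 in hair germ cells, with summits at positions -94 and -96 from the start, and none of the 4 motifs matched. Upstream of the predicted gene Gm829, at 181 and 32 fragments, 2 AP-1 matches and 1 SOX match were found, and the SOX match directly abuts the first AP-1 match. The window of 1700019D03Rik (126 and 28 fragments) held 1 TEAD match. That of Fcgbp, which encodes a secreted mucin-like protein that binds immunoglobulin, held 2 NFI half-sites and had 262 and 52 fragments. Bulge coverage thus exceeded hair germ coverage at all 4, in libraries that differ in depth. A match is a run of letters and not a bound site.

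The promoters at telogen-only sites were of another kind than those open in all 4 populations. Of the 190 genes they belonged to, 96 were protein-coding (50.5%, interval 43.2 to 57.8), against 84.5% at sites of all 4 lists, 63.7% at sites of both anagen lists only and 64.5% of all genes with a window. Median GC content was 49.7% against 62.0% at sites of all 4 lists, 56.3% at sites of both anagen lists only and 53.0% over all windows. The median number of CpG dinucleotides in a window was 4, against 22, 9 and 7.

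Short motifs differed with this composition. The NFI half-site was found in 53 of 209 telogen-only windows (25.4%, interval 19.6 to 31.8), in 15.96% of windows at sites of both anagen lists only and in 14.1% of all 32619 windows. SOX matched 19.1% (14.04 to 25.1), against 7.31% and 12.2%, TEAD 21.1% (15.7 to 27.2), against 15.4% and 14.6%, and AP-1 11.96% (7.89 to 17.1), against 8.46% and 7.85%. The GC-rich box of SP and KLF factors (GGGCGG) matched 26.3% (20.5 to 32.8), against 38.5% and 35.9%. Letters of TCF and LEF factors (9.09%, 5.56 to 13.8, against 5.77% and 5.14%) and of STAT factors (13.9%, 9.49 to 19.3, against 7.31% and 8.34%) were also more frequent than in all windows. Of 23 motifs searched, these 6 had an interval above the share in all windows and SP/KLF alone had one below it; windows share genes, and the shares were not adjusted for the number of motifs. Among windows of 40 to 60% GC, NFI half-sites (27.2% against 16.7%), SOX (20.7% against 13.6%), STAT (15.98% against 9.55%) and AP-1 (14.2% against 9.01%) still had intervals above the share in all windows of that GC, while for TEAD (21.3% against 17.2%), TCF/LEF (10.1% against 6.15%) and SP/KLF (19.5% against 20.3%) the interval held that share. At sites of both anagen lists only, windows of that GC had 19.4% (NFI half-site), 9.70% (SOX), 8.79% (STAT) and 9.70% (AP-1). The AP-1 interval (9.32 to 20.4) held its value and the others did not. Over windows of any GC, the AP-1 and TCF/LEF intervals held the shares at sites of both anagen lists only (8.46% and 5.77%).

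Of 1005 microRNA hairpins in RefSeq 1 lay in a telogen-only site. It is Mir7680 on chromosome 16 (hairpin 21256013 to 21256066, minus strand), at a weak site with 22 bulge and 11 hair germ fragments and fold enrichments of 5.55 and 5.02. Its mature form is printed with the seed (bases 2 to 8), which sets what a microRNA pairs with, in capitals.
mmu-miR-7680-5p: aUUCCAGUgaacaagcaguu

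Telogen-only sites, with those at promoters included, were compact, and the peaks of both populations had nearly the same centre. Site length ran from 248 to 3473 bp with a median of 690 (quartiles 513 and 917), and all sites together covered 5.91 Mb. A single bulge and a single hair germ peak made up 7685 of them (98.6%). The distance between the 2 summits had a median of 47 bp (quartiles 11 and 96) and was at most 150 bp in 86.3%, close to the 86.0% at sites of all 4 lists. The sites used 12.5% of bulge peaks and 13.9% of hair germ peaks, and they were 16.3% of the 47948 sites held by both telogen lists.

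Peak strength, as the authors' fold enrichment over the local background, lay between that of population-specific and common sites. At telogen-only sites the bulge fold enrichment ran from 1.54 to 19.8 with a median of 7.24 (quartiles 4.83 and 10.6), against 4.59 at sites of the bulge list only and 9.35 at sites of all 4 lists. The hair germ fold enrichment ran from 1.90 to 18.9 with a median of 5.85 (4.53 to 8.25), against 4.33 at sites of the hair germ list only and 8.75 at sites of all 4 lists. The quartile ranges overlapped between these classes. Classes are set by which lists called a peak, and a stronger site is more readily called, so the order follows in part from the rule. Where a site held several peaks of a list, the peak of highest fold was taken. Sites of all 4 lists were also longer (median 1283.5 bp against 690). Ranked within its own list, the median telogen-only site was at percentile 48.3 of bulge peaks but 35.6 of hair germ peaks. Fold enrichment was above the list's median in both populations at 2204 sites (28.3%), and in the top decile of both at 178 (2.28%).

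**Figure D2:**
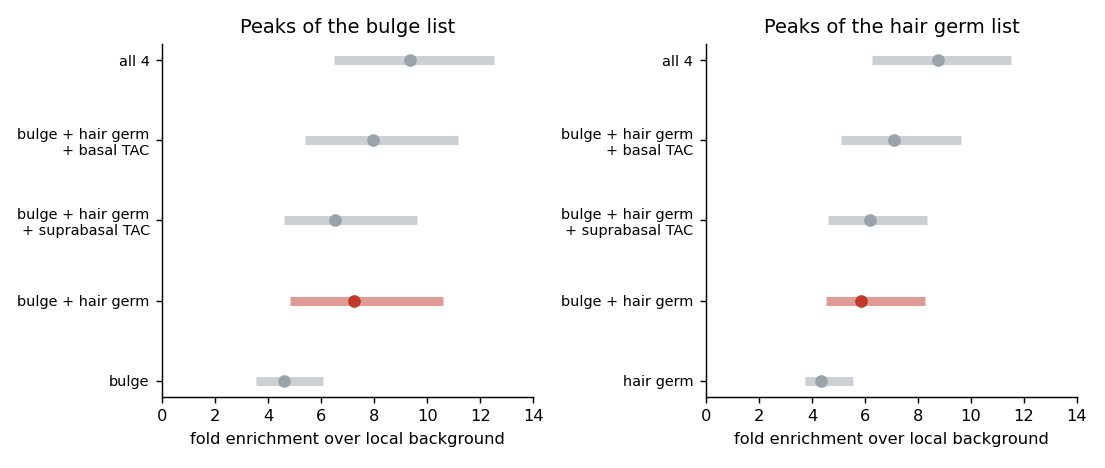
Fold enrichment over local background (x axis) of bulge peaks (left) and hair germ peaks (right) in each class of sites (y axis); points are medians and bars run from the lower to the upper quartile. Telogen-only sites (red) have medians of 7.24 and 5.85, between the sites of a single list (4.59 and 4.33) and those of all 4 lists (9.35 and 8.75). This order follows in part from how the classes are set.

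Openness leaned to the bulge. Summit coverage ran from 10 to 650 fragments for bulge peaks (median 49) and from 6 to 218 for hair germ peaks (median 19), before any correction for depth. Per 1000000 fragments (depth-scaled coverage), the median ratio of hair germ to bulge coverage was 0.864 at telogen-only sites (-0.21 on the log2 scale), 0.953 where basal TACs also had a peak, 1.04 where suprabasal TACs also had one and 1.01 at sites of all 4 lists. Depth-scaled bulge coverage was at least 2-fold that of the hair germ at 1261 telogen-only sites (16.2%, interval 15.4 to 17.0), against 5.14% of all sites held by both lists and 1.62% of sites of all 4 lists. The opposite, hair germ coverage at least 2-fold that of the bulge, was found at 488 (6.26%, 5.73 to 6.82), near the 5.80% of all sites held by both.

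Classes of sites were then compared at like bulge coverage; the ratio has that coverage as its denominator and falls along it in every class, so only the gap between classes is read. Among telogen-only sites with fewer than 25 bulge fragments the median ratio was 1.40 (1543 sites), where the rule keeps a site only if a hair germ peak was called too. It was 0.980 between 25 and 49 fragments, 0.706 between 50 and 99, 0.588 from 100 to under 200 and 0.580 at 200 or more (440 sites). Sites of all 4 lists went from 1.58 to 0.925 over the same ranges, and sites that also had a basal TAC peak, at 0.733 and 0.666 in the strongest 2 ranges, lay between. In bulk libraries like these, fewer cells with a site open and a site less open in each cell cannot be told apart.

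**Figure D3:**
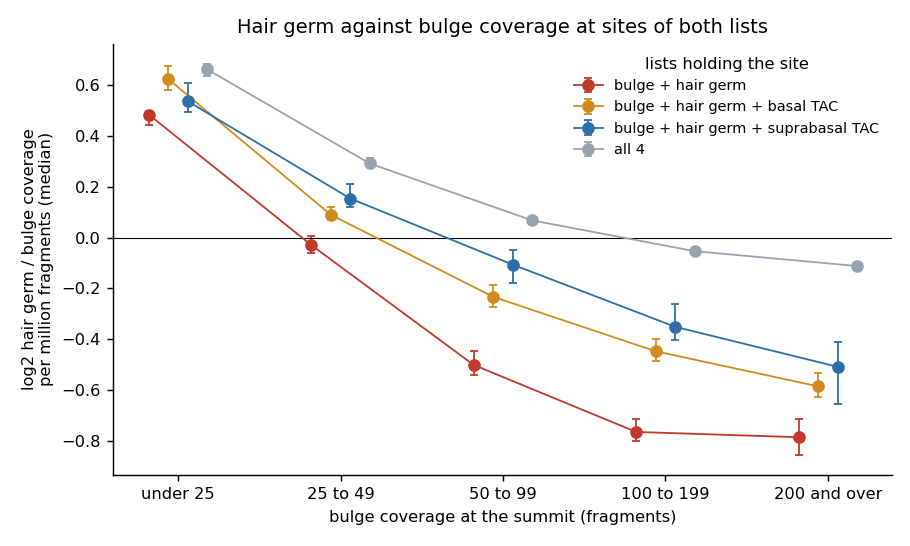
Median log2 ratio of hair germ to bulge summit coverage per 1000000 fragments (y axis) by bulge coverage (x axis) for 4 classes of sites; bars are 95% intervals of the median over sites and cover no spread between animals. Telogen-only sites (red) are the lowest at every coverage and reach -0.79 at 200 or more fragments, where sites of all 4 lists are at -0.11.

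Absence from the anagen lists was set against depth. Scaled to the depth of the basal TAC library, the median bulge coverage at telogen-only sites would be 62.8 fragments and the median hair germ coverage 53.0, where 95% of basal TAC peaks had at least 18. For the suprabasal library the scaled medians were 97.4 and 82.3 against a level of 19. Every site had to hold called peaks, whose coverage was at least 10 in the bulge list and 6 in the hair germ list, and nearly any such peak passes these levels once scaled, so passing them does not bear on the absence. The scaling assumes that signal grows with total fragments and does not cover differences in signal over background: the median fold enrichment of all peaks was 7.48 in the bulge list, 7.14 in the hair germ list, 6.71 in the basal and 4.79 in the suprabasal list.

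By distance, few sites sat at the edge of the rule. Distance does not cover how strongly a peak was called. The −log10 q-value of hair germ peaks at telogen-only sites had a median of 10.1 (quartiles 5.44 and 18.3). With peaks of −log10 q-value 10 or more only, 5194 sites met the rule, of which 3660 overlapped the 7795. An anagen peak lay within 50 bp of 9 telogen-only sites (median fold enrichment 4.999 for bulge and 5.57 for hair germ peaks) and within 500 bp of 329. Just outside, 17 sites of both telogen lists overlapped an anagen peak by at most 50 bp (5.07 and 4.18). The nearest anagen peak was at a median distance of 5.13 kb (quartiles 2.05 and 12.6), and 205 sites (2.63%) had none within 100 kb.

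Telogen-only sites were mostly distal. A gene start or end lay within 1 kb of 281 (3.605%, interval 3.20 to 4.04), against 6.64% of sites of both anagen lists only, 37.1% of sites of all 4 lists and 14.02% of all sites. The share was 3.78% at sites of the bulge list only, within the interval. Inside a gene span were 3660 (47.0%), against 56.4%, 62.9% and 55.7%; exons, introns and UTRs were not separated, since the annotation used gives gene spans only. More than 100 kb from any protein-coding gene were 1356 (17.4%, 16.6 to 18.3), against 10.0%, 5.44% and 10.6%. The share was closer at sites of the bulge list only (15.8%), of the hair germ list only (13.99%) and of both telogen lists with the basal TAC list (15.0%).

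By chromosome the share of sites that were telogen-only ran from 5.61% (5.05 to 6.20) on chromosome 7 to 8.34% (7.57 to 9.17) on chromosome 14 and 8.72% (7.66 to 9.87) on the X chromosome. The X share stood above the 6.78% of all sites and the share of sites of both anagen lists only was lowest there, at 9.06%. The labels give mixed sex for every sample, and they do not give the proportion of each sex in a pool.

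Each site was assigned to the protein-coding gene whose span lay closest, within 100 kb, which names a neighbour and not a target. Of 16799 genes with any site, 3716 (22.1%) had a telogen-only site: 2347 had 1, 745 had 2, 624 had 3 or more, and the most at 1 gene was 14. Over all assigned sites 6.26% were telogen-only, and this is the background for the gene groups below. The gene lists were chosen with earlier results of these data known. They share genes, with 332 genes in 375 entries. Groups were described by count and interval only, since with 1 pooled list per population no spread between animals could be had. The intervals (exact Clopper-Pearson, 95%) cover counting error only. They treat sites as independent, which neighbouring sites and sites of the same gene need not be, so they can be too narrow.

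Transcription factors of bulge stem cells had a share of telogen-only sites above the background. Of 18 such genes 14 had a telogen-only site, and 53 of their 537 sites were telogen-only (9.87%, 7.48 to 12.7). Without Nfatc1 the share was 8.76% (6.44 to 11.6), an interval that starts just above the background. Counts of genes, here and below, rise with the number of sites per gene. Of genes with 25 or more sites, 523 had a telogen-only site and 92 had none. With 15 to 24 sites these counts were 698 and 345. Nfatc1, a calcineurin-dependent factor known for stem cell quiescence, had 9 of 35, Runx1 7 of 41, Zbtb16 6 of 36, and the WNT effector Tcf7l2 5 of 58. Sox9, needed for stem cell maintenance, had 4 of 16, as did the chromatin protein gene Hmga2 with 4 of 13. Lhx2, a LIM homeobox regulator, had 3 of 20 and the vitamin D receptor gene Vdr 3 of 19. Nfib, a nuclear factor I gene, had the most sites of the group and only 3 of 94 telogen-only.

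The 4 sites around Sox9 had bulge coverage of 32, 59, 65 and 97 fragments and hair germ coverage of 9, 18, 23 and 32. The strongest (chromosome 11, 112856487 to 112857315, 69.1 kb from the gene) had fold enrichments of 12.7 and 10.3. At Nfatc1 bulge coverage ran from 43 to 218 and hair germ coverage from 13 to 59, with 6 of the 9 sites inside the gene. At Lhx2, by contrast, the site inside the gene had 215 and 79 fragments but fold enrichments of only 4.71 and 4.09, the fold being taken against the local background. At Nfib the strongest site (chromosome 4, 82271586 to 82273279, 17.7 kb from the gene) had 200 and 61 fragments, at fold enrichments of 12.2 and 13.4. At Runx1 depth-scaled hair germ coverage exceeded bulge coverage at 6 of 7 sites. Most of the 7 had bulge coverage of 11 to 40 fragments. Over all telogen-only sites the median hair germ to bulge ratio was 1.40 under 25 bulge fragments and 0.980 from 25 to 49. At Nfia, also a nuclear factor I gene, depth-scaled hair germ coverage was higher at all 4 telogen-only sites (ratios 1.04 to 3.42).

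Signals and surface proteins of the bulge had a larger share still, 56 of 377 sites (14.9%, 11.4 to 18.9), at 18 of 22 genes. Prlr, the receptor for prolactin, a hormone known to hold follicles in rest, had 8 telogen-only sites among 33. Sfrp1, a secreted WNT antagonist, and Itgb6, an integrin subunit, had 6 of 26 each. Lgr5 had 4 of 27, Fst, which encodes the activin and BMP antagonist follistatin, 4 of 14, and Npnt, which encodes the basement membrane protein nephronectin, 4 of 11. Col17a1, a hemidesmosomal collagen of stem cells, had 3 of 19, Postn 3 of 11 and the surface protein gene Cd200 3 of 14. Cd34 and Itgb1 had 1 each, and Krt15, Wif1, Fgf18 and Igfbp5 had none.

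Across the Prlr locus the 8 sites had bulge coverage of 44, 64, 75, 49, 56, 114, 172 and 29 fragments, in order along the chromosome, and hair germ coverage of 9, 9, 19, 18, 13, 15, 34 and 12. The strongest (chromosome 15, 10256701 to 10258092, inside the gene) had fold enrichments of 11.0 and 8.40. By depth-scaled coverage the bulge was higher at all 8, with hair germ to bulge ratios between 0.286 and 0.901. Of the 33 sites at Prlr 27 had a bulge peak, 18 a hair germ peak, 16 a basal and 2 a suprabasal TAC peak.

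At Lgr5 the 4 sites had 19, 102, 36 and 98 bulge fragments and 15, 33, 23 and 28 hair germ fragments. The strain with the reporter in this locus gave the bulge, hair germ and basal TAC lists but not the suprabasal list. At Sfrp1 the site of highest fold (chromosome 8, 23493268 to 23494015, 44.0 kb from the gene) had 130 and 35 fragments and fold enrichments of 13.4 and 10.9. At Postn, which encodes the matrix protein periostin, a site 70.8 kb away had 144 bulge fragments and 16 hair germ fragments, a depth-scaled ratio of 0.242, while the site inside the gene had 75 and 34, a ratio of 0.987. At Cd200 all 3 sites leaned to the bulge, with ratios of 0.635, 0.484 and 0.345.

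**Figure D4:**
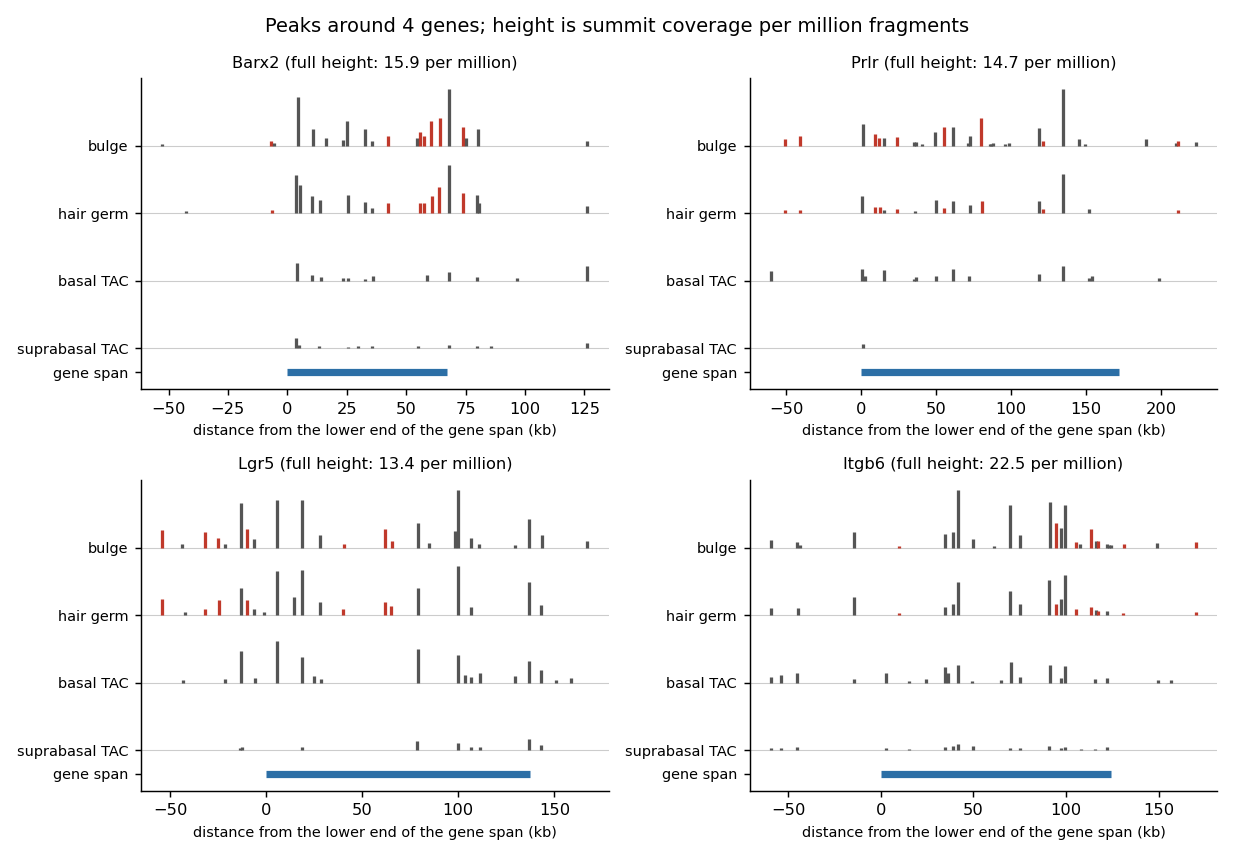
Peaks around Barx2, Prlr, Lgr5 and Itgb6 in the 4 lists (rows); the x axis is distance from the lower-coordinate end of the gene span in kb, the height of each line is summit coverage per 1000000 fragments on a scale shared within a panel, and blue bars are the gene spans. Peaks of telogen-only sites are red, and some of them are assigned to a neighbouring gene. In the Lgr5 panel the 4 red sites left of the gene span are those assigned to Zfc3h1. The Lgr5 site 77.7 kb from its gene lies outside the panel. The red sites stand between peaks that other lists share.

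Genes of the outer root sheath, the layer continuous with the bulge, had the largest share of the 26 gene lists: 15 of 90 sites (16.7%, 9.64 to 26.0), of which Barx2, a homeobox gene, gave 7 of 26 and Sox9, also counted above, 4. Without Barx2 the share was 8 of 64 (12.5%, 5.55 to 23.2), an interval that holds the background. The 7 Barx2 sites had bulge coverage between 34 and 183 fragments and hair germ coverage between 12 and 82, and Barx2 had 0 sites of both anagen lists only.

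Adhesion and matrix genes had 33 of 354 sites (9.32%, 6.50 to 12.8), with 12 of 19 genes represented. Hmcn1, which encodes the large matrix protein hemicentin, led with 9 of 47, followed by Itgb6 and by Tnc, which encodes tenascin C, with 4 of 33. Without Hmcn1 the share was 7.82% (5.07 to 11.4). AP-1 genes had 15 of 151 (9.93%, 5.67 to 15.9), 6 of them at Creb5. Creb5 had 50 basal TAC sites against 37 in the bulge, so telogen-only sites were 6 of its 68.

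Pathway genes lay near the background. WNT genes had 35 of 662 sites (5.29%, 3.71 to 7.28), led by Sfrp1, with Tcf7l2 and the co-repressor gene Tle4 at 5 each. BMP genes had 17 of 307 (5.54%, 3.26 to 8.72), 4 at Fst and 3 of 8 at Sostdc1, a secreted antagonist of BMP and WNT signals. TGF-beta genes had 19 of 271 (7.01%, 4.27 to 10.7), 5 of them at the co-receptor gene Tgfbr3 and 4 at Ltbp1, which encodes a latent TGF-beta binding protein. Hedgehog (4.42%), Notch (5.46%) and FGF genes (4.32%) had intervals that hold 6.26%, and the members of these lists with at least 3 were Maml2 with 3 and Fgfr2 with 4. Hormone and nuclear receptor genes had 7.24% (4.59 to 10.8), and without Prlr 5.17%. The nuclear receptor gene Rora had 3 telogen-only sites. Cell cycle genes had 7.5% (3.94 to 12.7), of which Myc gave 6 of 12; without it the share was 4.80%. Clock genes had 7 of 86, 4 at Arntl, which encodes the core clock factor BMAL1.

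Inner root sheath and interfollicular differentiation genes stood at the low end. Hair shaft genes did not, with 5 of 68 sites (7.35%, 2.43 to 16.3), an interval that holds the background. Inner root sheath genes had 2 of 122 sites (1.64%, 0.199 to 5.80), and interfollicular epidermis differentiation genes 1 of 116 (0.862%, 0.0218 to 4.71). Hair germ genes had 11 of 306 (3.59%, 1.81 to 6.34) and matrix genes 17 of 401 (4.24%, 2.49 to 6.70), 7 of these at Runx1 and 4 at Prdm1, and both intervals hold the background of 6.26%. Lef1, the partner of β-catenin, and Hoxc13, a regulator of hair keratins, had none among 28 and 20 sites, nor did Cux1 among 58 and Shh among 9. Sites of both anagen lists only were 23.8% of inner root sheath, 18.2% of matrix and 15.0% of hair germ sites, against 10.8% over all genes and 4.51% at bulge signals and surface genes.

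These shares depend on what they are taken from, since genes with many anagen sites have larger totals. Of sites held by both telogen lists, 14.7% over all genes were telogen-only. On that count bulge signals and surface genes (29.8%, 23.4 to 36.9), bulge transcription factors (19.9%, 15.2 to 25.1) and outer root sheath genes (31.3%, 18.7 to 46.3) were above it. The interfollicular list was below (1.75%, 0.0444 to 9.39). For hair germ (10.4%, 5.30 to 17.8), matrix (12.1%, 7.24 to 18.7), inner root sheath (7.41%, 0.910 to 24.3) and hair shaft genes (27.8%, 9.69 to 53.5) the interval held the background.

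Markers of other cell types that a sort could carry gave mixed counts. Endothelial genes had 11 of 103 sites (10.7%, 5.45 to 18.3) at 7 of 8 genes, with 2 each at Tek, Emcn, Kdr and Flt1 and none at Vwf. Tek and Emcn had 8 and 5 bulge peaks and 11 and 8 basal TAC peaks. Melanocyte genes had 6 of 84, 5 of them at Mitf and 1 at Kit. Immune genes had 1 of 24, dermal genes 3 of 61, and sebaceous (0 of 29) and Merkel cell genes (0 of 16) none, counts of 0 that allow up to 11.9% and 20.6%. Widely expressed genes had 3 of 61, all at Ywhaz. What part cells of other types had in the telogen-only sites was not tested.

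**Figure D5:**
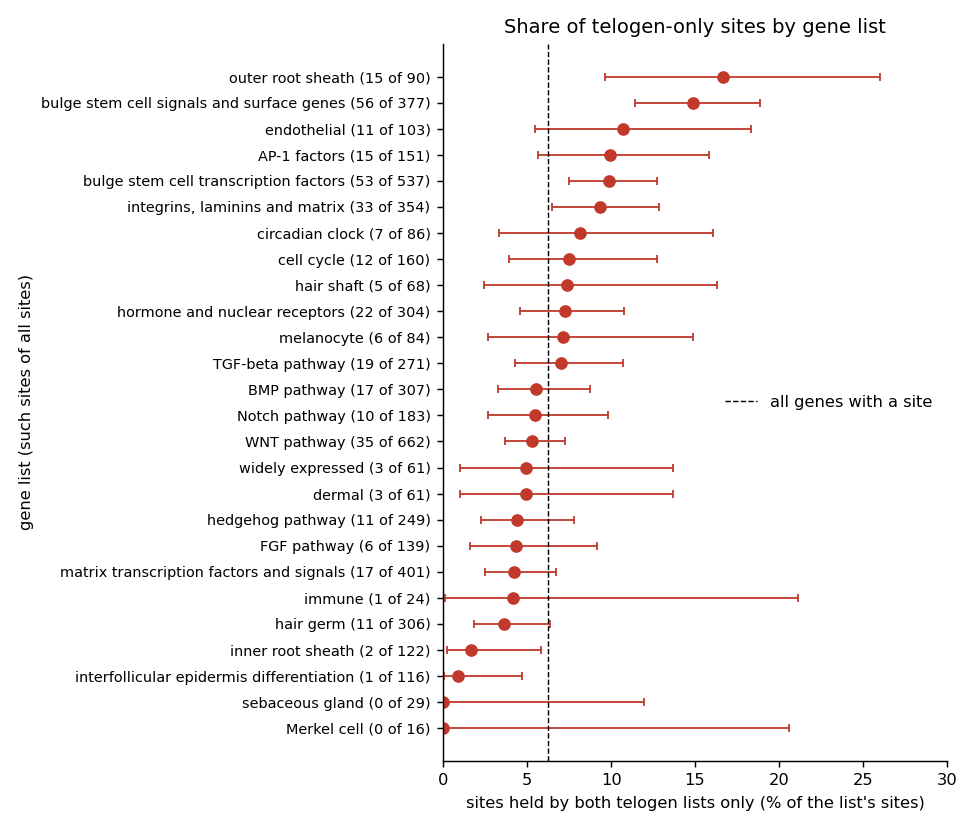
Share of each gene list's sites that are telogen-only (x axis, percent; points with exact 95% intervals that cover counting error only) for the 26 lists (y axis, with counts); the dashed line is the 6.26% over all genes. Outer root sheath and bulge lists lie above the line with their intervals, and the inner root sheath and interfollicular lists below it. The lists were chosen with earlier results of these data known.

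The genes with the most telogen-only sites were long. The 25 with the most had a median span of 538 kb, against 52.9 kb for all genes with such a site and 22.9 kb for all genes with any site. Ptprg, a receptor tyrosine phosphatase gene, had 14 of 51 sites, Palld, which encodes the actin-binding protein palladin, 13 of 48, and Enox1 13 of 53. Adgrv1, an adhesion receptor gene, and Tenm3, a teneurin, had 12 each, of 42 and 50, and Alk, a receptor tyrosine kinase gene, 11 of 56. Plcl1 (24 sites), Immp2l (43), Hivep3 (48) and Gmds (51) had 10 each. Sorcs3, Pdzrn4, Dpyd, Itprid2, Nfatc1, Gpc6, Fhit, Hmcn1, Lrmda and Macrod2 had 9, and Nxph1, Cdh13, Ncald, Tmem45a and Lifr had 8.

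In 23 of these 25 genes telogen-only sites outnumbered sites of both anagen lists only, the exceptions being Lrmda (9 and 14) and Macrod2 (9 and 11). At 7 of them, Gmds, Sorcs3, Dpyd, Itprid2, Nxph1, Cdh13 and Tmem45a, no site belonged to both anagen lists only. Over all genes with a site, 34.96% had a site of both anagen lists only. Among genes with a telogen-only site the share was 78.2% at 15 to 24 sites and 93.3% at 25 or more. The 25 genes were picked by their number of telogen-only sites, so the count of 23 leans the same way by choice, and the count of 7 is not free of it. At Ptprg the strongest of the 14 sites (chromosome 14, 12091629 to 12093342, inside the gene) had 425 and 201 fragments, nearly equal per 1000000 fragments (17.7 and 18.2). The other 13 had between 32 and 139 bulge fragments and between 11 and 89 in the hair germ. At Palld the strongest site (chromosome 8, 61692320 to 61693470) had 177 and 69 fragments at fold enrichments of 12.7 and 12.4, while the weakest had 16 and 9.

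By share, among the 4037 genes with at least 8 sites, Malrd1 was first with 5 of 9 sites telogen-only (55.6%). Its 9 sites all had a bulge peak, 6 had a hair germ peak, 1 a basal and 0 a suprabasal TAC peak. Scg5, which encodes a chaperone of neuroendocrine secretion, had 5 of 10, and Zfc3h1, Xcl1 (a chemokine), Scnn1g (a subunit of the epithelial sodium channel), Lrrc55, Caln1 and P2ry1 (a purine receptor) had 4 of 8 each. Nxph1, a neurexophilin gene, had 8 of 17 (47.1%) and Fbxo16 7 of 15 (46.7%). At Nxph1, Sorcs3 and Postn the suprabasal list had no peak at any assigned site, against 16, 17 and 10 sites with a bulge peak.

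The 20 strongest telogen-only sites were in the top few percent of both lists. The first by the lower of its within-list percentiles lay inside Col24a1, a fibrillar collagen gene (chromosome 3, 145498825 to 145499632), with 371 bulge and 154 hair germ fragments, fold enrichments of 19.2 and 17.8, and percentiles of 99.7 and 99.6. Scaled to the basal TAC library its coverage would be 475 from the bulge and 429 from the hair germ. A site 28.6 kb from Tnfaip3, which encodes the NF-κB inhibitor A20, had 245 and 131 fragments at 18.8-fold and 18.5-fold, with both summits at the same base. A site 46.0 kb from Maml3, a Notch co-activator gene, had 171 and 62, and one inside Zrsr2 on the X chromosome 128 and 57.

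Further down the same ranking, the site of Srek1 had 315 and 147 fragments and that of Zmym2 138 and 42. The site near Fat4, an atypical cadherin gene, had 320 and 53 fragments, which per 1000000 fragments is 13.3 against 4.79, and that of Phlpp1, a phosphatase gene, had 398 and 96. The next ones were near or in Fhod3, Smim20, Cep112, Ccdc54, Hpgd (which encodes a prostaglandin-degrading enzyme) and Opcml. The nearest genes of 6 of the top 20 sites were beyond the 100 kb limit: Fam98a (914 kb), Rgma (319 kb), Mctp2 (274 kb), Cited2 (204 kb), Ly86 (173 kb) and Slitrk6 (123 kb).

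Telogen-only sites neighboured each other. The next site along the chromosome was also telogen-only after 12.6% of them (11.9 to 13.3), against 6.78% after any site and 4.39% (4.03 to 4.76) after a site of both anagen lists only. Sites of both anagen lists only adjoined their own class too, at 15.7% against 10.8% after any site. Neighbouring sites can share a wider stretch of open chromatin, so they are not independent. There were 800 runs of 2 or more in a row, holding 1781 sites (22.8%). The longest, 7 in a row over 176 kb, was at Pld5 on chromosome 1, with 22 to 68 bulge and 8 to 48 hair germ fragments. Runs of 5 were found at Phyhipl and Bicc1 (77.5 kb), Wdr7 and St8sia3 (147 kb), Sorcs3 (173 kb), Cav2, which encodes a caveolin (26.5 kb), and Palld (44.8 kb), and 22 runs of 4 followed.

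The remaining run of 5 was packed into 6.94 kb on chromosome 9 (31683534 to 31690477), with Barx2 as the nearest gene but beyond the 100 kb limit. Coverage there was among the highest of the class, 177 to 381 bulge and 64 to 126 hair germ fragments, but fold enrichment was only 1.86 to 5.36 and 2.15 to 5.43. The stretch ranks low by fold and high by coverage, and the local window of 10 kb used for the fold is wider than the whole run.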

How the data were processed

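ATAC-seq was carried out by the authors on 8 samples, 2 for each of 4 sorted populations, and 1 peak list per population was deposited. Per the file headers, peaks were called by the authors with MACS 2.1.1.20160309 at a q-value cutoff of 0.05 with a local window of 10 kb and no control library; Bowtie2 2.2.9, Picard and mm10 are named in the submitters' processing notes. Whether read ends were shifted for the insertion offset of the enzyme was not stated per the labels, and positions of peak edges can move by that. For each peak the authors deposited a pileup signal (fragment coverage at the summit, not scaled for depth), −log10 p-values and −log10 q-values, and a fold enrichment against the local background; the −log10 columns have lost their names and were read by their place in the output of MACS.

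Here peaks outside the mitochondrial and Y chromosomes (56 left out) were merged by overlap of at least 1 bp. Coverage was expressed per 1000000 fragments where populations are compared. Gene spans (21631 protein-coding genes) and promoter windows came from RefSeq tables of GRCm38.p6. The promoter table lacks chromosome 18 and some other genes, and no genome was used, so sequence at distal sites was not analysed here. Samples were grouped by their labels; no test between groups was possible with 1 pooled list each, and intervals are exact Clopper-Pearson intervals at 95%, and order-statistic intervals for medians. The sites and gene lists were chosen with earlier results of these data known.

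Genes were named by a rule: the 25 with most telogen-only sites, the 10 with the largest share among genes with at least 8 sites, the nearest genes of the 20 strongest sites, runs of 5 or more, and list genes with at least 3; list genes with fewer are named as group examples. Beside the 4 motifs spelled out above, the letters searched were TAATTA for LHX homeobox factors, TGTTTAC for forkhead factors, TGTGGTT for RUNX factors, AGATAA for GATA factors, CTTTGAA for TCF and LEF factors, GGGCGG for SP and KLF factors, CAGGAAG for ETS factors, CAGCTG for E-box factors, TGGAAA for NFAT factors, ACANNNTGT for steroid receptors, TTCNNNGAA for STAT factors, TGGGTGGTC for GLI factors, GTCTAGAC for SMAD factors, TTTATGG for HOX factors and TGACGTCA for CREB factors, together with the longer NFI, SOX pair, CTCF core and p63 core motifs, on both strands. Merging, gene assignment and motif search were tested on simulated data. Python 3.11.15, pandas 2.3.3, numpy 2.4.6, scipy 1.17.1 and matplotlib 3.10.9 were used.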

Additional observations from a re-analysis of the deposited data

How the results depend on the processing

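Each list pools both samples of a population. No paired analysis was possible because per-sample values were not analysed here, and no sample was left out; each anagen list was left out as a whole. By depth the hair germ list, from 11053351 fragments, is the least precise.

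With peaks of −log10 q-value 10 or more only, 5194 sites met the rule, of which 3660 (70.5%) overlapped the 7795; 5.01% were near a gene end, median fold enrichments were 9.39 and 8.15, and the share over all genes was 5.66%. With equal numbers of peaks from each list 10097 sites met it (7230, or 71.6%, overlapping), with 5.15% near a gene end, folds of 7.42 and 6.15, and shares of 15.4% (bulge transcription factors), 20.7% (bulge signals and surface genes), 7.41% (matrix) and 9.91% (all genes). With absence scaled for depth, a condition that nearly every called telogen peak meets, 7538 sites were left, with a bulge fold of 7.48, a coverage ratio of 0.852 and an all-gene share of 6.06%; with no anagen peak within 500 bp, 7466 were left and that share was 5.97%. Without the basal TAC list 14382 sites met the rule, with 4.12% near a gene end, folds of 7.57 and 6.35, a ratio of 0.910, and shares of 18.5% and 30.5% for the bulge lists, 7.60% for hair germ and 13.4% for all genes. Without the suprabasal list 10128 met it, with 5.01% near a gene end, a bulge fold of 7.02, a ratio of 0.913, and shares of 14.3% (bulge transcription factors), 7.81% (matrix) and 9.86% (all genes). With a gene end distance of 2 kb, 6.47% of the sites were near one.

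Under each of these 7 settings for the sites, including an overlap of 50% of the shorter peak (7704 sites), both bulge lists had a larger share, and the hair germ and matrix lists a smaller one, than all genes. Genes with a telogen-only site numbered 3144 within 20 kb and 2836 within gene spans plus 10 kb. Of 67 named genes 36 changed their count by more than 1.5 times with peaks of −log10 q-value 10 or more: Lrrc55, Ltbp1, Maml2, Fgfr2 and Prdm1 were left with 0, Malrd1 went from 5 to 1, Prlr from 8 to 1, Palld from 13 to 4, Sox9 from 4 to 2, Itgb6 from 6 to 3, Zbtb16 from 6 to 3 and Nfatc1 from 9 to 4, while Nfib went from 3 to 7 and Mitf from 5 to 8; the cause was not tested. That cut drops weaker anagen peaks too, so a site that holds one can enter the class under it. Leaving out the basal TAC list changed 15 genes by more than 1.5 times, equal numbers of peaks 7, and leaving out the suprabasal list 2. These checks were chosen after seeing the data: the GC range for promoters, the share of sites held by both telogen lists (14.7% for all genes, 19.9% and 29.8% for the bulge lists, 10.4% for hair germ and 12.1% for matrix genes), and leaving out the gene with most telogen-only sites. Without that gene, telogen-only sites were 8.76%, 13.95%, 2.51% and 2.78% of all sites of the 4 lists, in the same order. With it they were 9.87%, 14.9%, 3.59% and 4.24%. The motif search at distal sites was not run.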

Other observations

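Genes that kept telogen-only sites had fewer sites of both anagen lists only than other genes of like size. Of all 3716 genes with a telogen-only site, 1954 (52.6%) also had a site of both anagen lists only, more than the 34.96% of all genes with a site. Genes with many sites of any kind are more often among the former. Within genes of 10 to 14 sites the order was the other way: 427 of 702 genes with a telogen-only site (60.8%) had a site of both anagen lists only, against 541 of 701 without (77.2%). Among their sites that were not telogen-only, 10.1% and 14.4% were of both anagen lists only. The same order was seen in genes of 3 to 5 sites (19.9% against 34.7%), 6 to 9 (42.4% against 57.7%), 15 to 24 (78.2% against 90.7%) and 25 or more (93.3% against 97.8%). A telogen-only site takes up 1 of a gene's sites, which lowers the room for others in the first comparison.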
